A study of Mus musculus with 16 samples.

Results

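The unconventional and nonmuscle myosins described here are 10 genes, Myh9, Myh10, Myo18a, Myo5a, Myo5b, Myo6, Myo7a, Myo9a, Myo9b and Myo10. They were taken by symbol from the array annotation, which assigns 17 of the 45037 probe sets to them, out of 17097 named genes in all. None of the 17 probe sets is shared with another gene (0 of 17). The samples were KO and WT lungs of 3 mice each, KO and WT heart of the same 6 mice, and KO and WT cultured skin fibroblasts, 2 samples each, on 16 mouse arrays. KO mice lack NM1, nuclear myosin 1, an isoform made from the class I myosin gene Myo1c, and WT mice carry it. The labels used here give neither age, sex or strain nor the part of the gene that was removed, so the groups are known by genotype and tissue alone. The arrays are named by mouse number, KO 1602, 1603 and 1586 and WT 1592, 1624 and 1593 for lungs and heart, KO 1584 and 1550 and WT 1571 and 1623 for fibroblasts.

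Myosins are motors that bind actin filaments and use ATP to pull on them. The nonmuscle class II heavy chains assemble into bipolar filaments that contract the cell cortex and stress fibres, while the unconventional classes carry vesicles, tether organelles, shape filopodia and microvilli or switch off the GTPase RhoA. Class VI walks towards the opposite end of the filament from the other classes known in mammals, and takes part in endocytosis. All values below are log2 signals of 1 probe set on 1 array, where equal differences stand for equal folds of signal, and levels are compared only between samples of the same probe set. Where a gene has several probe sets, the one with the highest mean over the 16 arrays stands for it.

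The samples carried the markers of their labels. All 6 lungs had 13.92 to 14.13 of Sftpc, a surfactant protein of the alveolus, all 6 hearts 13.83 to 13.98 of Myl2, a light chain of ventricular muscle, and the 4 fibroblast samples 10.88 to 11.61 of Col1a1, a collagen. Myo1c itself, averaged over its 4 probe sets, was at 6.31 to 7.09 in KO lungs and 7.55 to 8.35 in WT lungs, 5.92 to 6.00 in KO heart and 6.60 to 6.83 in WT heart, and 6.24 to 6.26 in KO fibroblasts and 7.52 to 7.81 in WT fibroblasts. Whether these probe sets tell the isoforms apart was not checked, and none of the 4 passed the test in any tissue (smallest adjusted p = 0.0674, in lungs). Their KO minus WT differences lay between -1.61 and -1.15 in lungs and between -1.70 and -1.22 in fibroblasts. In heart they were unequal, at -1.10, -0.84, -0.89 and -0.17, so the mean in heart does not hold for each probe set. The KO heart of mouse 1602 stood apart from the other hearts, with an upper quartile of all its values of 5.63 against 6.17 to 6.31.

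The 10 genes fell into different tissue patterns. Differences were tested with limma over all probe sets kept by a filter, a mean above 3.79 in at least 1 compared tissue, and called at a Benjamini-Hochberg adjusted p under 0.05. Between WT lungs and WT heart, 12 of 17 probe sets passed the test, 11 higher and 1 lower in lungs, where 60.2% of all 24947 probe sets kept for that comparison did (34.8% higher and 25.4% lower). Between WT lungs and WT fibroblasts 11 of 17 passed, 6 higher and 5 lower in lungs (60.1% of all kept, 28.4% higher and 31.7% lower). Between WT heart and WT fibroblasts 13 of 17 passed, 4 higher and 9 lower in heart (63.8% of all kept, 27.7% higher and 36.2% lower). In each of these comparisons 16 of the 17 were kept by the filter on low values, and the exception was 1441104_PM_at of Myo5b, which lay between 2.84 and 3.33 on all arrays. The median difference over the 17 was 0.51 for lungs minus heart, 0.07 for lungs minus fibroblasts and -0.63 for heart minus fibroblasts, beside 0.18, -0.05 and -0.16 over all kept probe sets. The higher calls for lungs over heart and the lower calls for heart under fibroblasts were a larger share of the 16 kept than of all kept probe sets. That difference was not tested, and the genes are described singly below. In bulk samples, a lower share of the cells that make a transcript and less of it per cell cannot be told apart.

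**Figure D1:**
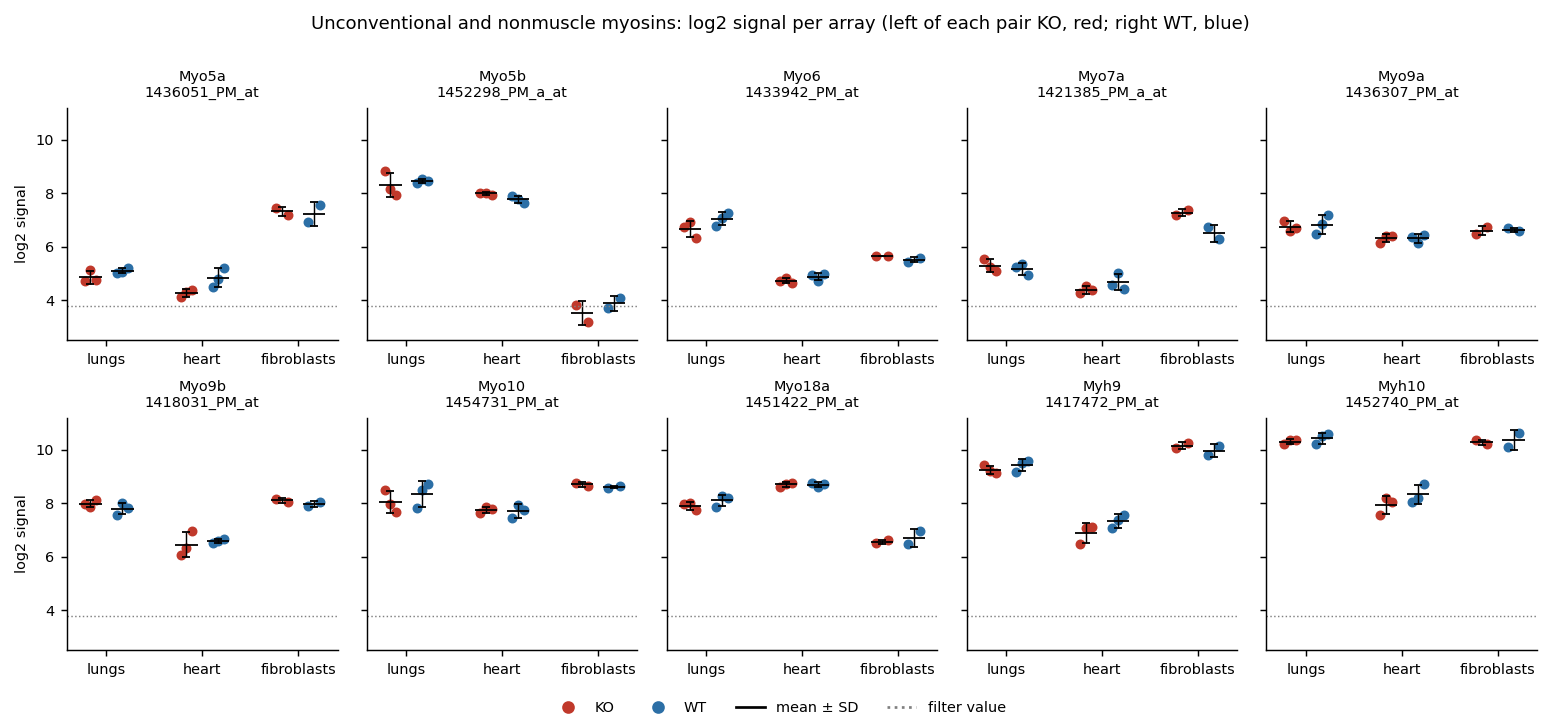
Log2 signal of the probe set that stands for each of the 10 myosin genes, 1 panel per gene, 1 point per array, KO in red left of WT in blue within lungs, heart and fibroblasts, with bars at group means, whiskers of 1 SD and a dotted line at the filter of 3.79. Myh9 and Myh10 are lowest in heart, and Myo5b is high in lungs and heart and between 3.19 and 4.08 in fibroblasts. KO and WT points separate in heart for Myo5a and Myo5b and in fibroblasts for Myo6, Myo7a, Myo9b and Myo10, and overlap elsewhere.

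Myh9 and Myh10, the heavy chains of nonmuscle myosin IIA and IIB, were both low in heart beside lungs and fibroblasts. Myh9 measured 9.42, 9.22 and 9.13 in KO lungs and 9.17, 9.49 and 9.60 in WT lungs. In heart it measured 6.46, 7.09 and 7.11 in KO and 7.07, 7.37 and 7.58 in WT mice. In fibroblasts it measured 10.07 and 10.24 in KO and 9.79 and 10.14 in WT samples. No heart reached the lowest lung or fibroblast array, and every fibroblast array lay above every lung array. In WT samples Myh9 was 4.22-fold higher in lungs than in heart (log2 difference 2.08, SE 0.20, adjusted p = 6.1e-07) and 6.18-fold lower in heart than in fibroblasts (-2.63, SE 0.22, adjusted p = 1.63e-07). Lungs were lower than fibroblasts by a small step (-0.55, SE 0.22, adjusted p = 0.0431), a call that was lost without WT fibroblast sample 1623 (-0.37, adjusted p = 0.284), WT lungs 1592 (-0.43, 0.141) or WT lungs 1624 (-0.58, 0.0638), with no filter (-0.55, 0.07) and with lungs 1603, 1586 and 1592 left out (-0.43, 0.166).

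Myh10 was likewise low in heart, while lungs and fibroblasts lay close together. It measured 10.20, 10.35 and 10.38 in KO lungs and 10.20, 10.51 and 10.60 in WT lungs, and 7.55, 8.20 and 8.04 in KO hearts and 8.06, 8.21 and 8.72 in WT hearts. KO fibroblasts had 10.35 and 10.22 and WT fibroblasts 10.11 and 10.63, within the range of the lungs apart from 1 sample on either side. WT lungs were 4.30-fold higher than WT heart (2.11, SE 0.21, adjusted p = 9.43e-07) and WT heart was 4.11-fold lower than WT fibroblasts (-2.04, SE 0.23, adjusted p = 3.54e-06). The difference between WT lungs and WT fibroblasts did not pass the test (0.07, 95% interval -0.43 to 0.56, adjusted p = 0.818).

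Both genes had their lowest signal in heart, and their promoters are shown for that reason. Each sequence is the 300 bases around the start of the gene in RefSeq, build GRCm38.p6, for Myh9 chr15:77842126-77842425 on the minus strand and for Myh10 chr11:68691665-68691964 on the plus strand, written 5′ to 3′ along the gene. Capitals mark GC boxes, GGGCGG or its reverse complement CCGCCC, the letters bound by SP1-type factors.
Myh9: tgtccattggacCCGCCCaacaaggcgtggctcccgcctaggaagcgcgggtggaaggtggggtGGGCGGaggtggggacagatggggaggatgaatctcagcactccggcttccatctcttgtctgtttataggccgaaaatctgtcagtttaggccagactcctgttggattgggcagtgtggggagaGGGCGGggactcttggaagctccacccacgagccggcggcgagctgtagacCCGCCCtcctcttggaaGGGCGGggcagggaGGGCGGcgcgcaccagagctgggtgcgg
Myh10: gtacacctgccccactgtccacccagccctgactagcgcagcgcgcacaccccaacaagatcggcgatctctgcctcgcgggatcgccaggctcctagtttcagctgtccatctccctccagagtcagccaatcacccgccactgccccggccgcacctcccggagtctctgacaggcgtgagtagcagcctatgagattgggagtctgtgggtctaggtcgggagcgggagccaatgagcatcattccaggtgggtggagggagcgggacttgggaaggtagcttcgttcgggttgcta
The Myh9 window held 6 GC boxes and a match to TATAAA or TTTATA, and the Myh10 window held 0 GC boxes and 0 such matches. Of all 32851 promoters listed there, 35.7% held a GC box and 13.6% a TATA match. Of 12 promoters listed for 9 of the 10 genes, 8 held a GC box and 0 held a CArG box, the motif of serum response factor, which 1.63% of all promoters held. A match is a description of the letters in this window only.

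Myo18a, a class XVIII myosin found at the Golgi and in complexes with myosin II, ran the other way. KO lungs had 7.97, 8.0 and 7.74 and WT lungs 7.87, 8.26 and 8.20. KO hearts had 8.61, 8.73 and 8.77 and WT hearts 8.77, 8.61 and 8.72. KO fibroblasts had 6.51 and 6.62 and WT fibroblasts 6.46 and 6.95. Hearts were highest, then lungs, then fibroblasts, with no overlap between the tissues. WT lungs were 1.50-fold lower than WT heart (-0.59, SE 0.14, adjusted p = 0.00306), WT lungs 2.65-fold higher than WT fibroblasts (1.40, SE 0.16, adjusted p = 5.88e-06) and WT heart 3.98-fold higher than WT fibroblasts (1.99, SE 0.16, adjusted p = 1.3e-07). It was the only one of the 10 genes called lower in lungs than in heart.

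The class V genes, whose products carry vesicles along actin, were split between the samples. Myo5a, which moves melanosomes in pigment cells and endoplasmic reticulum in neurons, was highest in fibroblasts by all 3 of its probe sets. Its leading probe set measured 4.70, 5.14 and 4.74 in KO lungs and 5.02, 5.06 and 5.21 in WT lungs, 4.11, 4.31 and 4.38 in KO hearts and 4.49, 4.80 and 5.20 in WT hearts, and 7.44 and 7.19 in KO fibroblasts and 6.91 and 7.55 in WT fibroblasts. The lowest fibroblast array stood above the highest array of either organ. In WT samples it was 4.39-fold lower in lungs than in fibroblasts (-2.13, SE 0.22, adjusted p = 2.42e-06) and 5.27-fold lower in heart than in fibroblasts (-2.40, SE 0.22, adjusted p = 5.29e-07), and the other two probe sets gave differences of -2.76 and -2.28 for lungs and -3.03 and -2.36 for heart, all called. The difference between lungs and heart did not pass the test (0.27, 0.08 and 0.27 for the 3 probe sets, smallest adjusted p = 0.268). With the KO tissue difference averaged in, which adds the 6 KO organ arrays, all 3 passed (0.56, 0.37 and 0.43, adjusted p = 0.00526, 0.0417 and 0.0139). Under quantile normalization of the WT comparison 1431320_PM_a_at gave -0.11 and 1436051_PM_at 0.00, so no order of lungs and heart is given for Myo5a.

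The fibroblast samples were checked for pigment and nerve cells, which are known for Myo5a. Melanocyte markers, 6 genes, averaged 3.77 to 4.01 in lungs, in heart 4.35 to 5.16, and 3.46 to 3.75 for the cultured cells. In fibroblasts the pigment enzymes Tyr, Tyrp1 and Dct were at 2.38 to 3.11, 3.00 to 3.33 and 2.76 to 3.04, and Mlana, a melanosome protein, at 2.77 to 2.94, all under the filter of 3.79. Pmel, the fibril protein of melanosomes, was at 3.61 to 4.32 and Mitf, a transcription factor of pigment cells and other types, at 5.88 to 6.12 there. Of 3 measured nerve markers Tubb3, a tubulin, was at 7.45 to 8.33 in fibroblasts, Uchl1, a ubiquitin hydrolase, at 4.01 to 5.66 and Snap25, a synaptic protein, at 2.47 to 2.73. The part of these cell types in the Myo5a values was not tested. Keratinocyte markers averaged 3.79 to 3.86 in fibroblasts.

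The Myo5a promoter, shown because all 3 probe sets move together between the organs and the cultured cells, lies at chr9:75070956-75071255 on the plus strand (GRCm38.p6, RefSeq). Capitals mark its single GC box (1 match).
Myo5a: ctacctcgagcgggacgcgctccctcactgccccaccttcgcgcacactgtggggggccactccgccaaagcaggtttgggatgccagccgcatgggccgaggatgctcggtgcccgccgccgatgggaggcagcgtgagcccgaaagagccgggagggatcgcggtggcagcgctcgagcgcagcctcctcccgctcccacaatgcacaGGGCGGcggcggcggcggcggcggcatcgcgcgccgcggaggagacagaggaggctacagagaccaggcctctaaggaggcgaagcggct
It held 0 TATA matches.

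Myo5b, which works with Rab11 in the recycling of membrane to the apical surface of epithelia, gave the widest tissue range of the 10 genes, with group means spanning 4.94. Its leading probe set measured 8.82, 8.17 and 7.94 in KO lungs and 8.38, 8.52 and 8.44 in WT lungs. Hearts were only a little lower, at 8.01, 8.02 and 7.94 in KO and 7.90, 7.78 and 7.62 in WT mice. Fibroblasts were at 3.83 and 3.19 in KO and 3.69 and 4.08 in WT samples, close to the median of all values, 3.79. The files used here hold no detection calls, so no fold is given against signals this low. WT lungs were higher than WT fibroblasts (log2 difference 4.56, SE 0.24, adjusted p = 1.98e-09), as was WT heart (3.88, SE 0.24, adjusted p = 6.94e-09), and WT lungs 1.60-fold higher than WT heart (0.68, SE 0.21, adjusted p = 0.0125). A second probe set, 1437698_PM_at, was also higher than in fibroblasts (2.46 for lungs and 2.22 for heart, adjusted p = 6.74e-05 and 0.000136), with no call between lungs and heart (0.25, adjusted p = 0.542). The third was below the filter on all arrays and gave no test.

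The level of Myo5b in heart was set beside the markers of lung epithelium, which over 5 measured genes averaged 12.26 to 12.56 in lungs, in heart 3.53 to 4.64, and 3.27 to 3.71 for the cultured cells. The part of epithelial cells in the Myo5b values was not tested. The endothelial marker mean was 9.00 to 9.82 in lungs, in heart 7.38 to 8.0, and 2.85 to 3.27 for the cultured cells, which is the same order as Myo5b. That order was not particular to endothelium. Macrophage means (6.89 to 7.42, 5.88 to 6.38 and 4.34 to 4.45) and lymphocyte means (4.83 to 5.29, 3.69 to 4.03 and 2.92 to 3.12) had it too. Mesothelial means ran the same way, with overlap of lungs and heart (7.44 to 8.47, 3.87 to 7.51 and 3.04 to 3.23). The part of any of these cells in the Myo5b differences was not tested.

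Myo6, the class VI motor of endocytosis and of hair cell stereocilia, was highest in lungs. Its leading probe set measured 6.75, 6.91 and 6.33 in KO lungs and 6.78, 7.07 and 7.27 in WT lungs. It measured 4.73, 4.81 and 4.64 in KO hearts and 4.93, 4.72 and 4.97 in WT hearts, and 5.64 and 5.64 in KO fibroblasts and 5.44 and 5.57 in WT fibroblasts. No lung array overlapped with any array of the other tissues. WT lungs were 4.48-fold higher than WT heart (2.16, SE 0.16, adjusted p = 4.47e-08) and 2.89-fold higher than WT fibroblasts (1.53, SE 0.18, adjusted p = 5.69e-06), and the second probe set, 1435559_PM_at, gave 1.73 and 2.32 for the same differences (adjusted p = 9.81e-06 and 2.05e-06). Between heart and fibroblasts the probe sets disagreed in sign, -0.63 (adjusted p = 0.00631) for the leading one and 0.59 (adjusted p = 0.0457) for the second, so no order of these tissues is given for Myo6. The first of these calls was lost without WT fibroblast sample 1623 (-0.57, adjusted p = 0.0534), and the second in 7 of 10 alternatives to the main settings, among them each left-out WT heart or WT fibroblast sample (0.53 to 0.64, adjusted p up to 0.172), no filter (0.59, 0.0748) and both genotypes averaged (0.34, 0.0822).

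The Myo6 window at chr9:80164784-80165083 on the plus strand (GRCm38.p6, RefSeq) is shown because it holds the most GC boxes of the 12 promoters, 7 with overlapping matches counted.
Myo6: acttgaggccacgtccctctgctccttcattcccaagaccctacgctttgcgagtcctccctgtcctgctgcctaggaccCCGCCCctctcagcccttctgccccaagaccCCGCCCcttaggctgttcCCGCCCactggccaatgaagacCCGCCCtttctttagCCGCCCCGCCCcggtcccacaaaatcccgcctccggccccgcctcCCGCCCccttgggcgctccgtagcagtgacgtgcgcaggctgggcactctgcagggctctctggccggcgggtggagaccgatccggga
It held 0 TATA matches, and a count of GC boxes says nothing of which factor binds there.

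Myo7a, a motor of stereocilia and of the retinal pigment epithelium, was highest in fibroblasts. Lungs had 5.55, 5.22 and 5.07 in KO and 5.23, 5.34 and 4.93 in WT mice, and hearts 4.25, 4.54 and 4.36 in KO and 4.56, 5.01 and 4.43 in WT mice. It measured 7.18 and 7.37 in KO fibroblasts and 6.72 and 6.27 in WT fibroblasts. All 4 fibroblast arrays lay above all 12 organ arrays. In WT samples lungs were 2.51-fold lower than fibroblasts (-1.33, SE 0.21, adjusted p = 9.65e-05) and heart 3.55-fold lower than fibroblasts (-1.83, SE 0.21, adjusted p = 3.8e-06). WT lungs were 1.41-fold higher than WT heart (0.50, SE 0.19, adjusted p = 0.0326), a call that was lost in 7 of 13 alternatives, without WT heart 1592 (0.45, adjusted p = 0.0964), WT heart 1593 (0.38, 0.13), WT lungs 1592 (0.47, 0.0823) or WT lungs 1624 (0.41, 0.118), under quantile normalization (0.24, 0.269), with no filter (0.50, 0.0536) and with lungs 1603, 1586 and 1592 left out (0.47, 0.0844).

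The class IX genes, Myo9a and Myo9b, gave different tissue patterns. Myo9b, known from immune cells, measured 7.97, 7.86 and 8.13 in KO lungs and 7.58, 8.0 and 7.81 in WT lungs, 6.05, 6.34 and 6.98 in KO hearts and 6.50, 6.59 and 6.67 in WT hearts, and 8.17 and 8.04 in KO fibroblasts and 7.90 and 8.04 in WT fibroblasts. Hearts lay below all other arrays. WT lungs were 2.31-fold higher than WT heart (1.21, SE 0.19, adjusted p = 9.91e-05), WT heart was 2.61-fold lower than WT fibroblasts (-1.38, SE 0.22, adjusted p = 7.16e-05), and the difference between WT lungs and WT fibroblasts did not pass the test (-0.17, adjusted p = 0.502). Its second probe set, 1438533_PM_at, gave a smaller step between lungs and heart (0.50, adjusted p = 0.00675, and 0.29, 0.106 under quantile normalization) and no call in the other pairs. Macrophage markers averaged 6.89 to 7.42 in lungs, in heart 5.88 to 6.38, and 4.34 to 4.45 for the cultured cells, and the part of immune cells in the Myo9b values was not tested.

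Myo9a, the other class IX gene, varied least, with group means spanning 0.51. Its leading probe set lay between 6.46 and 7.17 in lungs, 6.13 and 6.43 in heart, and 6.47 and 6.72 in fibroblasts. WT lungs were 1.42-fold higher than WT heart (0.51, SE 0.17, adjusted p = 0.0203) and the second probe set gave 0.54 (adjusted p = 0.0223). These calls did not hold without WT lungs 1593 (0.34, adjusted p = 0.109, and 0.44, 0.0897), WT lungs 1624 (0.50, 0.0502, and 0.44, 0.0917) or WT heart 1624 (0.42, 0.0842, and 0.53, 0.0569), nor under quantile normalization (0.37, 0.0733, and 0.29, 0.191), and that of the second probe set was also lost without WT heart 1592 (0.51, 0.0662). The second probe set was also called higher in lungs than in fibroblasts (0.56, adjusted p = 0.0334), a call lost in 8 of 11 alternatives, among them each of WT lungs 1593 (0.46, 0.106), WT lungs 1624 (0.46, 0.108), WT fibroblasts 1571 (0.68, 0.0506) and WT fibroblasts 1623 (0.44, 0.204) left out, quantile normalization (0.28, 0.252), no filter (0.56, 0.0548), only the compared tissues (0.56, 0.0636) and both genotypes averaged (0.30, 0.0806). Neither probe set passed the test between heart and fibroblasts (-0.31 and 0.02, adjusted p = 0.168 and 0.955).

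Myo10, a motor that carries integrins to the tips of filopodia, measured 8.49, 7.99 and 7.67 in KO lungs and 7.81, 8.50 and 8.72 in WT lungs. It measured 7.63, 7.86 and 7.77 in KO hearts and 7.45, 7.95 and 7.75 in WT hearts, and 8.76 and 8.65 in KO fibroblasts and 8.58 and 8.63 in WT fibroblasts. WT heart was 1.85-fold lower than WT fibroblasts (-0.89, SE 0.26, adjusted p = 0.00897). WT lungs were 1.54-fold higher than WT heart (0.63, SE 0.23, adjusted p = 0.0325), a call lost without WT lungs 1593 (0.44, adjusted p = 0.149), WT lungs 1624 (0.55, 0.103), WT heart 1592 (0.49, 0.127) or WT heart 1593 (0.64, 0.0613), with no filter (0.63, 0.0536) and with only the compared tissues (0.63, 0.0521). Markers of fat cells differed between lungs of both genotypes. The mean of 5 measured adipocyte markers was 8.90, 9.36 and 7.17 in lungs of KO mice 1603 and 1586 and WT mouse 1592, and 3.94, 4.31 and 4.14 in KO mouse 1602 and WT mice 1624 and 1593. In the same order Myo10 was at 7.99, 7.67 and 7.81, and at 8.49, 8.50 and 8.72, and the part of the fat markers in these values was not tested.

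**Figure D2:**
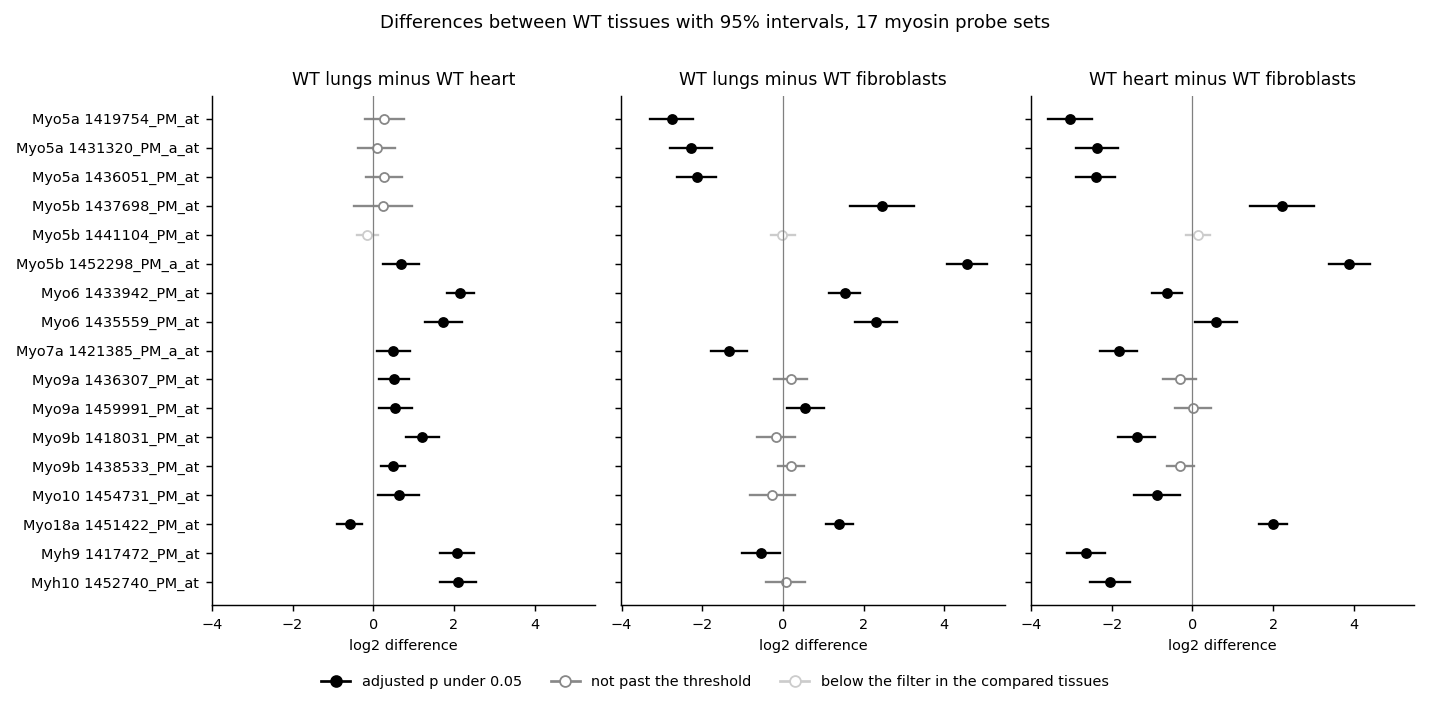
Log2 difference between WT tissues for each of the 17 myosin probe sets, in 3 panels (lungs minus heart, lungs minus fibroblasts, heart minus fibroblasts), with 95% intervals from the model as horizontal lines. Filled points passed the test, open points did not and pale points lay below the filter, and the difference of Myo5b between lungs and fibroblasts (4.56) is the furthest from 0.

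Genes that lie close to these myosins across the samples were found by the root mean square difference of log2 values over the 16 arrays, after each gene was centred on its own mean, among 10922 genes. This is a description of likeness over arrays that share tissues, with no test. The 2 nearest genes were Uap1l1 (0.17) and Mob3a (0.19) for Myh9 and Zfp703 (0.17) and Tpm3 (0.20) for Myh10, where Tpm3 encodes a tropomyosin that lies along actin filaments. They were Kif13a (0.16), a kinesin, and Habp4 (0.18) for Myo18a, Rtn4 (0.24) and Uhrf1 (0.24) for Myo5a, and Cystm1 (0.32) and Sox18 (0.35) for Myo5b, where Sox18 is an endothelial transcription factor. For Myo6 they were Lrrc8e (0.19) and Pak4 (0.21), for Myo7a Sh3gl1 (0.25) and 5430416N02Rik (0.25), and for Myo9b Slc25a45 (0.19) and Tnrc18 (0.20). Myo9a and Myo10, whose group means span 0.51 and 0.99, were not matched, since the rule asks for a span over 1.

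The light chains and regulators that work with Myh9 and Myh10 were counted over a list of 15 genes, of which 10 were measured and 9 kept. In lungs against heart 5 were called higher and 1 lower, in lungs against fibroblasts 3 higher and 1 lower, and in heart against fibroblasts 2 higher and 3 lower, all in WT samples. Of all kept probe sets 60.2%, 60.1% and 63.8% were called in these comparisons. The median difference over the 10 was 0.33, 0.28 and -0.05, beside 0.18, -0.05 and -0.16 over all kept probe sets. Mylk, the kinase that activates myosin II through its light chain, was at 10.69 ± 0.23 in WT lungs and 7.46 ± 0.31 in WT heart (SD, n = 3 each), 9.32-fold higher in lungs (adjusted p = 6.75e-08). Myl6, the essential light chain, was at 12.37 ± 0.01 in WT lungs and 10.41 ± 0.12 in WT heart, a difference of 1.95 (adjusted p = 3.96e-09), and lower in WT heart than in WT fibroblasts (difference -1.66, adjusted p = 5.71e-08). Myl6 therefore had its lowest level in heart, as Myh9 and Myh10 did. Myl12a, another light chain, gave no call for lungs minus heart, lungs minus fibroblasts or heart minus fibroblasts (-0.14, -0.03 and 0.12). Myl9, the regulatory light chain of smooth muscle and nonmuscle cells, was at 8.22 ± 0.22 in WT lungs (SD, n = 3) and 10.82 ± 0.75 in WT fibroblasts (SD, n = 2), 6.08-fold lower in lungs (adjusted p = 0.000702). Between WT lungs and WT heart Myl9 gave no call (-0.30). Rock1, a kinase downstream of RhoA, was 2.11-fold higher in WT lungs than in WT fibroblasts (adjusted p = 3.8e-05). The 2 genes called higher in WT heart than in WT fibroblasts were Rock1 (0.60) and Ppp1cb (0.65).

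Of 20 cargo adaptors and partners of the unconventional classes 18 were measured and 16 or 17 kept. In lungs against heart 7 were called higher and 4 lower, in lungs against fibroblasts 5 and 5, and in heart against fibroblasts 5 and 6, with medians over the 18 of 0.21, -0.09 and -0.13, beside 0.18, -0.05 and -0.16 over all kept probe sets, of which 60.2%, 60.1% and 63.8% were called. Rab27a and Mlph, which together link melanosomes to the class V motor Myo5a, were both high in lungs. Rab27a was at 7.23 ± 0.16 in WT lungs and 4.15 ± 0.24 in WT heart (SD, n = 3 each; 8.47-fold, adjusted p = 1.02e-07). In WT fibroblasts it was at 3.46 ± 0.31 (SD, n = 2), below the filter, a log2 difference of 3.77 for lungs minus fibroblasts (adjusted p = 5.63e-08). Mlph was at 5.19 ± 0.43 in WT lungs and 2.68 ± 0.01 in WT fibroblasts, also below the filter (2.5, adjusted p = 5.6e-07). Myo5a ran opposite to them, as it was lower in lungs than in fibroblasts. Dynll2, a light chain bound by Myo5a, was 4.72-fold lower in WT lungs than in WT heart (adjusted p = 4.6e-07) and 3.70-fold lower in WT lungs than in WT fibroblasts (adjusted p = 9.5e-06). Dynll1, of the same list, ran the other way between the organs, 3.55-fold higher in WT lungs than in WT heart (adjusted p = 6.7e-06). It was 3.48-fold lower in WT heart than in WT fibroblasts (adjusted p = 2.02e-05). Tom1 and Tom1l2, adaptors of Myo6 at endosomes, were 3.03-fold and 2.97-fold higher in WT heart than in WT fibroblasts (adjusted p = 3.66e-06 and 8.99e-07), and Tom1 was 3.24-fold lower in WT lungs, where Myo6 was highest, than in WT heart (adjusted p = 7.42e-07). Itgb1, an integrin carried by Myo10, was 2.42-fold lower in WT heart than in WT fibroblasts (adjusted p = 9.84e-06), the same direction as Myo10. Itgb5, the other integrin of the list, gave no call there (-0.30). It was called lower in WT lungs than in WT heart (-0.47), the opposite direction to Myo10.

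**Figure D3:**
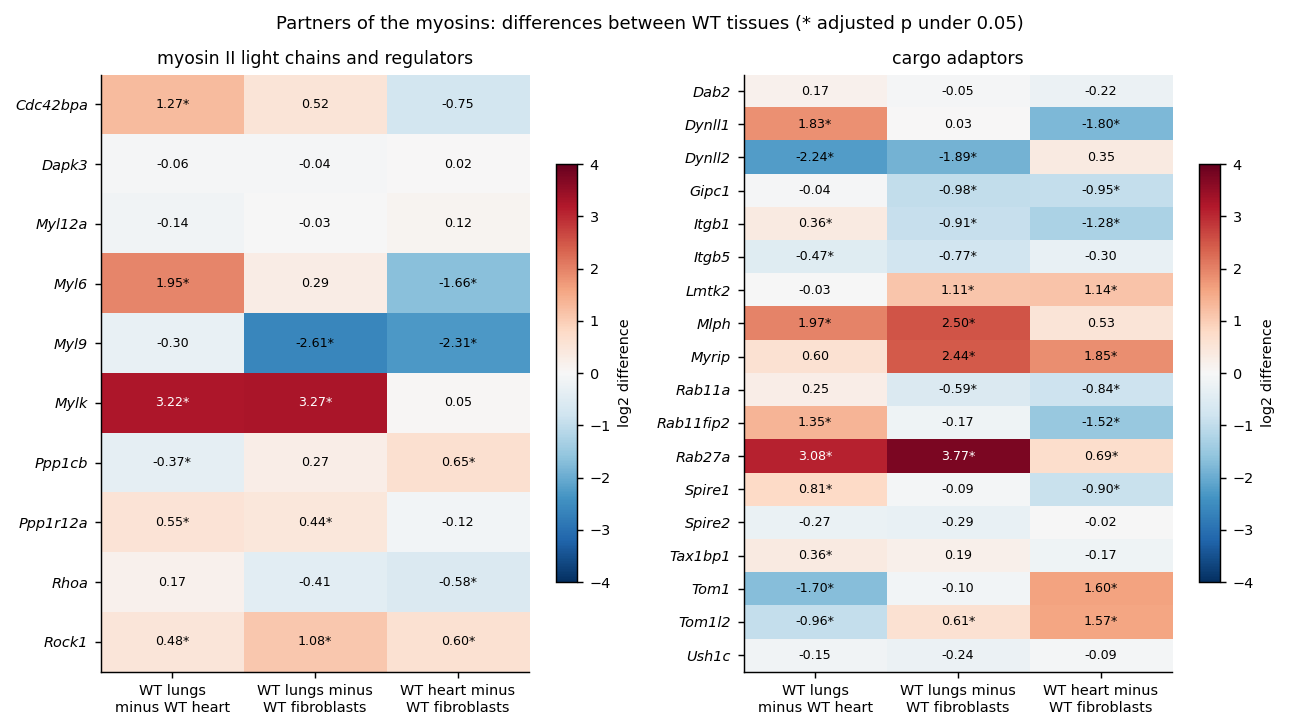
Log2 differences between WT tissues (columns: lungs minus heart, lungs minus fibroblasts, heart minus fibroblasts) for the 10 measured light chains and regulators of myosin II (left) and the 18 measured cargo adaptors (right), with red for positive and blue for negative differences and a star for an adjusted p under 0.05. Mylk and Rab27a stand out in lungs, and Myl6 is low in heart against both other tissues.

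Other myosins gave a few strong tissue differences. Of 9 further unconventional and nonmuscle genes 8 were measured and 2 kept, Myo5c and Myo19. Myo5c, the third class V gene and one of secretory epithelia, was at 8.10 ± 0.12 in WT lungs and 4.49 ± 0.27 in WT heart (SD, n = 3 each; 12.17-fold, adjusted p = 1.17e-09) and at 3.51 ± 0.36 in WT fibroblasts (SD, n = 2), below the filter, a log2 difference of 4.59 for lungs minus fibroblasts (adjusted p = 4.4e-10). Between lungs and heart its step was 3.61, while that of Myo5b was 0.68. Myo19, a motor of mitochondria, was 1.91-fold lower in WT lungs than in WT fibroblasts (adjusted p = 0.00465) and 1.67-fold lower in WT heart than in WT fibroblasts (adjusted p = 0.0164). Of 10 muscle heavy chains 7 were measured and 2 kept, and Myh7, a heavy chain of cardiac muscle, was 22.65-fold lower in WT lungs than in WT heart (9.05 ± 1.12 in WT lungs and 13.55 ± 0.03 in WT heart, SD, n = 3 each, adjusted p = 0.000321), the opposite direction to Myh9 and Myh10. The suffix _s_at of its probe set marks probes that can match several transcripts, so the value may not be of Myh7 alone.

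Loss of NM1 was then set against each gene. In no tissue did a myosin probe set pass the test between KO and WT. The count was 0 of 16 kept in lungs (0.0301% of all kept were called), 0 of 15 in heart (0.127%) and 0 of 14 in fibroblasts (0.0549%), with limma. An unadjusted p under 0.05 was reached by 1, 2 and 1 of them, where 6.96%, 17.0% and 3.33% of all kept probe sets did so. Over the 17 probe sets the median KO minus WT difference was -0.14 in lungs, -0.19 in heart and 0.11 in fibroblasts, beside -0.06, -0.16 and 0.02 over all kept. Of the kept myosin probe sets 4 were higher and 12 lower in KO than in WT lungs, 3 and 12 in heart, and 10 and 4 in fibroblasts. None of them passed the test. Myo1c itself, the gene that NM1 is made from, did not pass the limma test in any tissue either (smallest adjusted p = 0.0674, in lungs). Its differences were as large as -1.61 in lungs and -1.70 in fibroblasts. A missing call therefore does not show that a myosin was unchanged. The median over all kept probe sets was itself below 0 in lungs and heart and above 0 in fibroblasts.

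**Figure D4:**
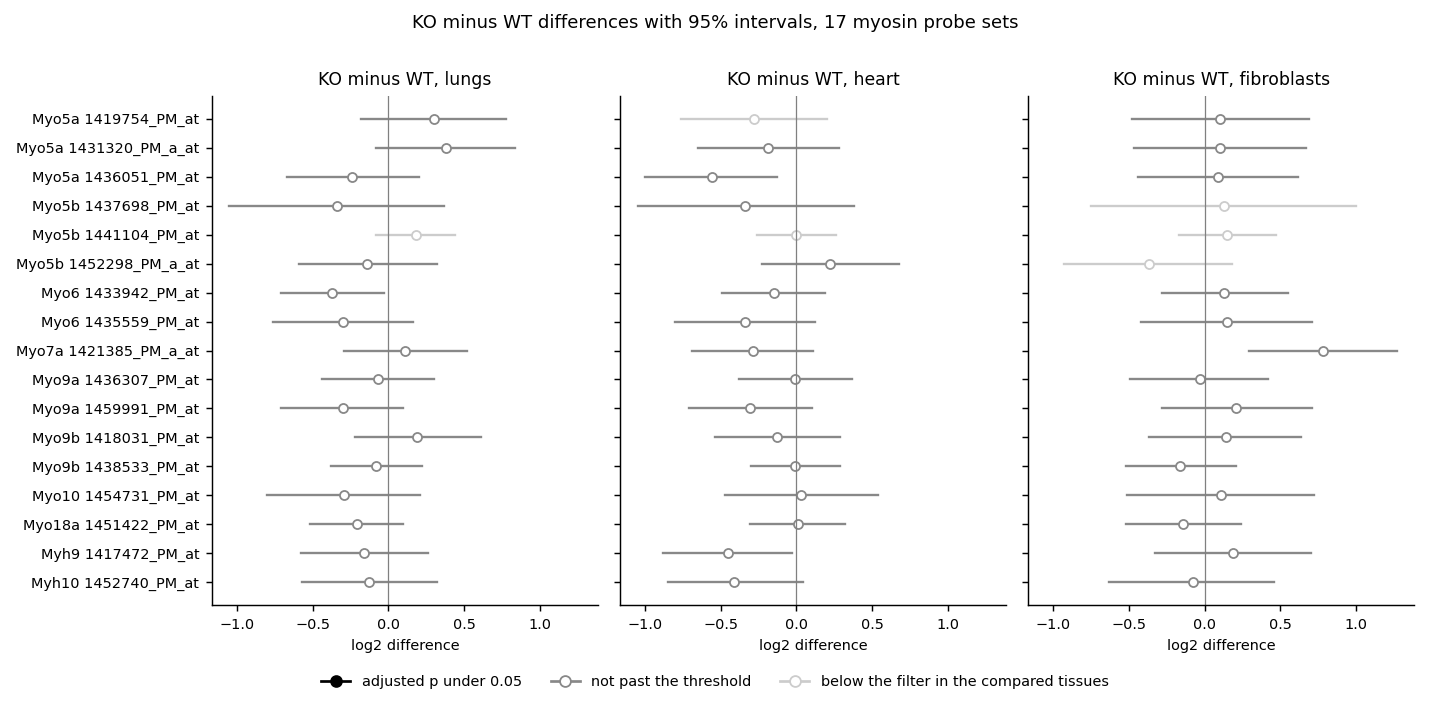
KO minus WT difference in log2 signal for each of the 17 myosin probe sets in lungs, heart and fibroblasts, with 95% intervals from the model. No probe set passed the test after adjustment over all kept probe sets, and Myo7a in fibroblasts (0.78) is the furthest from 0.

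In heart Myo5a and the 2 nonmuscle heavy chains had the smallest unadjusted limma p-values of the 15, at 0.0145 for Myo5a, 0.0360 for Myh9 and 0.0702 for Myh10. Myo5a (1436051_PM_at) measured 4.11, 4.31 and 4.38 in KO hearts, all below the 4.49, 4.80 and 5.20 of WT hearts, a difference of -0.56 (SE 0.20, 95% interval -1.0 to -0.13, adjusted p = 0.199). Its other probe sets gave -0.19 (adjusted p = 0.680) and -0.28 (not kept by the filter). Myh9 gave -0.45 (SE 0.20, 95% interval -0.88 to -0.03, adjusted p = 0.265) and Myh10 -0.41 (SE 0.21, 95% interval -0.85 to 0.04, adjusted p = 0.332), and for both the KO and WT hearts overlapped. Without KO heart 1602 the differences were -0.24 for Myh9 (adjusted p = 0.732), -0.22 for Myh10 (0.820) and -0.48 for Myo5a (0.507). With KO hearts 1602 and 1586 left out, chosen after seeing that they had the lowest atrial and mesothelial marker means, KO heart 1603 alone stood for the group and the differences were -0.25, -0.14 and -0.52.

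Markers of other cells were set beside these values in heart, where the median of all kept probe sets was itself -0.16. All 8 fibroblast markers had lower means in KO hearts, and their mean was 7.15, 7.64 and 7.34 in KO hearts 1602, 1603 and 1586, against 7.73, 7.74 and 8.30 in WT hearts 1592, 1624 and 1593. Means were also lower in KO for 5 of 5 endothelial markers (7.38 to 7.88 in KO and 7.91 to 8.0 in WT hearts), 5 of 5 atrial markers (4.95 to 9.95 in KO and 9.13 to 10.47 in WT hearts, which overlap), 5 of 5 mesothelial markers (3.87 to 6.46 in KO and 5.69 to 7.51 in WT hearts, which overlap), 5 of 5 macrophage markers (5.88 to 6.22 in KO and 6.08 to 6.38 in WT hearts, which overlap) and 3 of 4 smooth muscle markers (7.14 to 7.56 in KO and 7.66 to 8.41 in WT hearts). Means were higher in KO for 5 of 5 lung epithelium markers (3.64 to 4.64 in KO and 3.53 to 3.6 in WT hearts). They were also higher for 6 of 6 skeletal muscle markers (5.98 to 6.64 in KO and 6.04 to 6.17 in WT hearts, which overlap). Markers below the filter are counted in these lists. In heart it kept 2 of the lung epithelium, 3 of the skeletal muscle, 4 of the macrophage and 7 of the fibroblast markers. Cardiomyocyte markers were at 13.23 to 13.27 in KO and 13.22 to 13.23 in WT hearts. No gene of these lists passed the test. The part of these markers in the Myh9, Myh10 and Myo5a values was not tested. KO heart 1602 had the lowest fibroblast marker mean and the lowest Myh9, Myh10 and Myo5a signal, and WT heart 1593 had the highest of all 4. The same arrays had the lowest and the highest upper quartile of all values among the hearts (5.63 and 6.31). This order is therefore not particular to fibroblast markers or myosins, and the part of the array level in it was not tested.

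**Figure D5:**
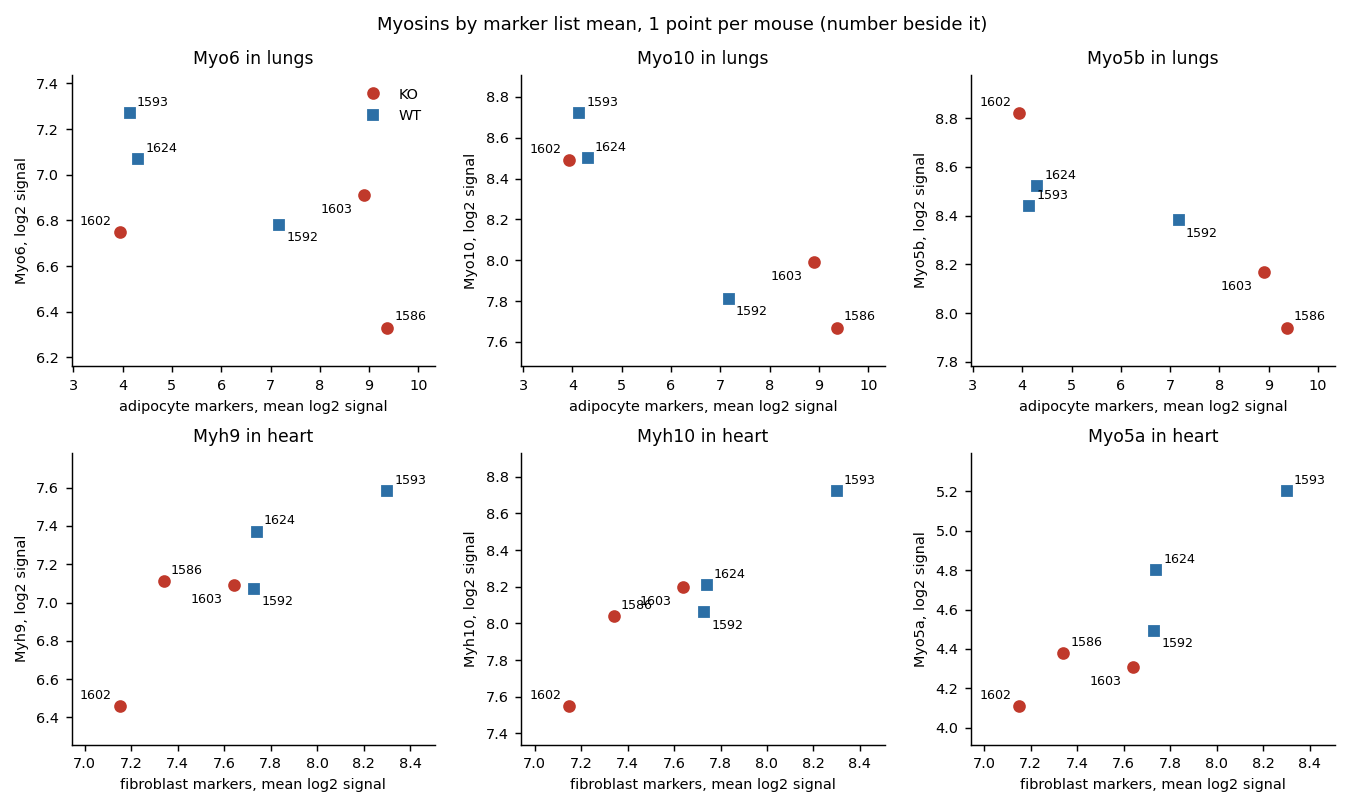
Log2 signal of Myo6, Myo10 and Myo5b in lungs against the mean of the adipocyte markers (top) and of Myh9, Myh10 and Myo5a in heart against the mean of the fibroblast markers (bottom), 1 point per mouse, KO as red circles and WT as blue squares, with mouse numbers. The lungs of mice 1603, 1586 and 1592 lie to the right in the top row and low for Myo10, and KO heart 1602 and WT heart 1593 stand at the opposite ends of the bottom row. Among hearts, these arrays also had the lowest and the highest upper quartile of all values (5.63 and 6.31).

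In lungs Myo6 was the nearest to a difference. KO lungs had 6.75, 6.91 and 6.33 and WT lungs 6.78, 7.07 and 7.27, which overlap, and the difference was -0.37 (SE 0.16, 95% interval -0.71 to -0.03, adjusted p = 0.711). Myo10 gave -0.29 (adjusted p = 0.766), Myh9 -0.16 (0.837), Myh10 -0.13 (0.885) and the Myo5a probe set 1431320_PM_a_at 0.38 (0.721). All 5 measured adipocyte markers had higher means in KO lungs, but their mean was high in KO 1603 and 1586 and low in KO 1602 (8.90, 9.36 and 3.94), and WT 1592 was also high (7.17, against 4.31 and 4.14 in WT 1624 and 1593). All 5 lymphocyte markers also had higher means in KO lungs (4.94 to 5.29 in KO and 4.83 to 5.05 in WT lungs). In lungs the filter kept 4 of the adipocyte and 4 of the lymphocyte markers. Means were lower in KO lungs for 5 of 5 endothelial markers (9.00 to 9.44 in KO and 9.15 to 9.82 in WT lungs), 4 of 4 smooth muscle markers (6.22 to 8.41 in KO and 7.60 to 8.40 in WT lungs) and 5 of 5 macrophage markers (6.89 to 7.33 in KO and 7.15 to 7.42 in WT lungs), all with overlap. Heart muscle markers varied too. The cardiomyocyte mean was 5.01 to 8.78 in KO and 7.02 to 8.50 in WT lungs, with 4 of 5 markers lower in KO. The atrial mean was 5.35 to 8.77 in KO and 6.37 to 8.51 in WT lungs, with 3 of 5 lower in KO. The part of all these cells in the myosin values was not tested. With lungs 1603, 1586 and 1592 left out, which leaves 1 KO array, the difference of the leading Myo5b probe set was 0.33, where it was -0.14 over all lungs, and neither passed the test.

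In fibroblasts Myo7a had the largest difference of the 17. KO samples had 7.18 and 7.37 and WT samples 6.72 and 6.27, without overlap, a difference of 0.78 (SE 0.23, 95% interval 0.29 to 1.27, adjusted p = 0.634). Leaving out each sample in turn gave 0.56, without WT 1623, to 1.0, without WT 1571, with no call. The difference of its genotype effect was -0.67 for lungs minus fibroblasts and -1.07 for heart minus fibroblasts, and neither passed the test (adjusted p = 0.987 and 0.442). No myosin passed this test between any pair of tissues (0 called in each, beside 0.00%, 0.0197% and 0.0203% of all kept probe sets for lungs minus heart, lungs minus fibroblasts and heart minus fibroblasts). At an unadjusted p under 0.05 there were 0, 1 and 1 of the 16 kept probe sets, where 7.22%, 4.37% and 7.77% of all kept did so.

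KO and WT arrays did not overlap for 1 of 16 kept myosin probe sets in lungs, where 11.5% of all kept did not, for 4 of 15 in heart (17.6%) and for 7 of 14 in fibroblasts (32.5%). The share was 5.08% higher and 6.46% lower in KO for lungs, 3.91% and 13.7% for heart, and 19.5% and 13.0% for fibroblasts. In lungs it was 1431320_PM_a_at of Myo5a, higher in KO at 4.49, 4.62 and 4.79 than in WT at 4.32, 4.21 and 4.24. In heart the leading Myo5b probe set was higher in KO (8.01, 8.02 and 7.94) than in WT (7.90, 7.78 and 7.62), a difference of 0.22 (adjusted p = 0.605), while Myo5a, Myo6 (1435559_PM_at) and Myo9a (1459991_PM_at) were lower in KO. In fibroblasts 6 were higher in KO, both of Myo6, Myo7a, Myo9a (1459991_PM_at), Myo9b and Myo10, and 1 lower, 1438533_PM_at of Myo9b. With 2 samples a group such separations are common on this array, as the 32.5% shows.

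Partner genes of the myosins gave no call between KO and WT either. The count was 0 higher and 0 lower in each tissue among the 9 light chains and regulators kept and the 14 to 17 adaptors kept. Of all kept probe sets 0.0301%, 0.127% and 0.0549% were called in lungs, heart and fibroblasts. The medians were -0.22, -0.16 and 0.01 for the light chains and regulators and -0.18, -0.11 and 0.13 for the adaptors. Over all kept probe sets they were -0.06, -0.16 and 0.02. Myl9 was at 6.71 ± 0.68 in KO hearts and 8.52 ± 0.58 in WT hearts (SD, n = 3 each), a difference of -1.81 (adjusted p = 0.114), and Myh11, the smooth muscle heavy chain, at 5.41 ± 0.44 in KO hearts and 6.93 ± 0.46 in WT hearts (-1.52, adjusted p = 0.111). Myh11 is itself 1 of the 4 smooth muscle markers, and of the other three Acta2 gave -0.84, Cnn1 -1.10 and Des 0.38 (adjusted p = 0.389, 0.413 and 0.505). The part of smooth muscle in the Myl9 value was not tested. Dab2, an adaptor of Myo6, gave -0.77 in KO against WT hearts (adjusted p = 0.128) and Myrip, an adaptor of Rab27a, -1.25 (adjusted p = 0.126).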

How the data were processed

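RNA was measured on Affymetrix mouse expression arrays, with 6 ug of total RNA made into biotin-labelled cRNA per the labels' protocols. For each array the authors deposited 1 log2 signal per probe set, and the submitters' processing notes name Partek 6.4 as a tool. How they corrected background, combined probes and normalized was not given in the sources used here. That the scale is log2 was inferred from array medians of 3.65 to 3.93, and nothing was normalized again. Without counts or detection calls, precision depends on how many arrays a group has. No array was a copy of another (smallest mean absolute difference 0.190). Of 45141 entries 104 controls were set aside. The annotation gives 1 gene for 28898 probe sets, several for 551 and none for 15588 of those left, and for 28689 the gene ID gave a current symbol.

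limma 3.58.1 in R 4.3.3 fitted 6 group means to all 16 arrays (10 residual and 3.53 prior degrees of freedom). The filter kept a probe set if its mean in either compared tissue exceeded 3.79, the median of the whole table. Two-sided p-values were adjusted by Benjamini-Hochberg over all kept probe sets, with calls at an adjusted p under 0.05. p-values measure the spread between samples within a group, and fibroblast samples were read as separate cultures by mouse number.

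All probe sets of the 10 genes are given. From each partner list up to 4 genes per comparison with the smallest adjusted p were named, and the nearest genes were the 2 with the smallest root mean square difference for each gene spanning over 1 log2 unit. Members, lists and rules were chosen with earlier results of these data known. Listed genes without a probe set of their own are not analysed here. Lungs and heart of 1 number come from 1 mouse, which pairs them: deviations from the group means correlated with r of 0.0381 to 0.178, own heart best for 4 of 6 mice. Alternatives were quantile normalization, no filter, fewer arrays in the fit, the mouse as a block, both genotypes averaged and each array left out. After seeing the data, 2 more left out the lungs 1603, 1586 and 1592 or the KO hearts 1602 and 1586.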

Additional observations from a re-analysis of the deposited data

Results flagged for a closer look

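For 2 probe sets the KO and WT arrays separated in opposite directions in 2 tissues. Myo6 (1435559_PM_at) measured 4.49 and 4.44 in KO and 4.26 and 4.37 in WT fibroblasts, a difference of 0.15, and 4.13, 4.71 and 4.84 in KO and 4.92, 4.88 and 4.91 in WT hearts, a difference of -0.34. Myo9a (1459991_PM_at) measured 4.64 and 4.59 in KO and 4.53 and 4.28 in WT fibroblasts, a difference of 0.21, and 4.05, 4.10 and 4.18 in KO and 4.34, 4.39 and 4.53 in WT hearts, a difference of -0.31. The test of the difference between heart and fibroblasts gave -0.49 (adjusted p = 0.716) for Myo6 and -0.52 (adjusted p = 0.677) for Myo9a, so neither passed. Groups of 2 or 3 arrays are too small for a search for single outlying arrays.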

How the results depend on the processing

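Of 36 called tissue differences of myosin probe sets 27 kept their call in every alternative, 9 lost it in at least 1 and 0 reversed, and the lost calls stand with their genes above. Of 453 values of KO against WT under alternatives 0 were called (smallest adjusted p 0.14). The mouse as a random replicate block kept the counts of called myosin probe sets at 12, 11 and 13 for lungs against heart, lungs against fibroblasts and heart against fibroblasts and at 0 for each KO comparison. Paired by mouse as a fixed block, lungs against heart gave 12, and the block changed no other call. Over all alternatives these counts were 8 to 15, 9 to 11 and 11 to 13.

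Counts over all probe sets moved more. KO against WT lungs gave 7 calls, 4 without the filter, 1 with lungs arrays only and 47 with 3 lungs left out (0 to 62 with single arrays left out). Heart gave 28, against 10, 2 with heart arrays only and 2 with 2 KO hearts left out (3 to 1054). Fibroblasts gave 12, and 0 with fibroblast arrays only (12 to 92). The difference of genotype effects gave 0 for lungs minus heart (28 with 3 lungs left out, singly 0 to 4), 5 for lungs minus fibroblasts (1, 3, 1 and 20 under quantile normalization, no filter, compared tissues only and lungs left out, singly 0 to 32) and 5 for heart minus fibroblasts (0 with compared tissues only, 2 with hearts left out, singly 5 to 46).

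Differences that were not called changed sign, and the cause was not tested. Under quantile normalization these were KO against WT heart for Myo6 1433942_PM_at (0.07), Myo9a 1436307_PM_at (0.24) and Myo9b 1418031_PM_at (0.12), Myo5a 1431320_PM_a_at (-0.11) and 1436051_PM_at (0.00) between lungs and heart, Myo9b 1438533_PM_at between lungs and fibroblasts (-0.06) and Myo9a 1459991_PM_at between heart and fibroblasts (-0.01, and -0.24 with both genotypes averaged). With 3 lungs left out they were Myo5b 1437698_PM_at (0.23) and 1452298_PM_a_at (0.33) in KO against WT and Myo10 between lungs and fibroblasts (0.01). With 2 KO hearts left out they were Myo5b 1437698_PM_at (0.30), Myo9a 1436307_PM_at (0.09) and Myo9b 1438533_PM_at (0.00).

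With single arrays left out, ranges that cross 0 were, for KO against WT lungs, Myo5b 1452298_PM_a_at -0.39 to 0.05, Myo7a -0.02 to 0.22 and Myo9a 1436307_PM_at -0.25 to 0.10. For KO against WT heart they were Myo9a 1436307_PM_at -0.10 to 0.08, Myo9b 1418031_PM_at -0.39 to 0.07 and 1438533_PM_at -0.16 to 0.15, Myo10 -0.10 to 0.15 and Myo18a -0.04 to 0.05. For fibroblasts they were Myo5a 1419754_PM_at -0.34 to 0.54, 1431320_PM_a_at -0.41 to 0.61 and 1436051_PM_at -0.23 to 0.40, Myo9a 1436307_PM_at -0.16 to 0.09, Myo18a -0.38 to 0.10 and Myh10 -0.34 to 0.18. Between WT tissues they were Myo5a 1431320_PM_a_at -0.06 to 0.17 (lungs and heart), Myo10 -0.45 to 0.01 and Myh10 -0.19 to 0.33 (lungs and fibroblasts) and Myo9a 1459991_PM_at -0.11 to 0.14 (heart and fibroblasts). A group of 2 leaves 1 sample here, which is assumed to vary like the other groups. Myo10 between lungs and fibroblasts was called with both genotypes averaged (-0.46, adjusted p = 0.0368).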
